A study of Arabidopsis thaliana with 30 samples.

Results

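The tau and phi glutathione S-transferase (GST) genes of Arabidopsis thaliana were followed in seedlings with altered messenger RNA (mRNA) capping. The members are all genes annotated GSTU1 to GSTU28 and GSTF2 to GSTF14, with GSTF12 left out, a rule that names genes and sets no threshold on a measured value. This gave 40 genes, 28 of the tau class and 12 of the phi class, among the 32833 genes of the count table. GSTF12, a phi gene needed for anthocyanin and proanthocyanidin transport, was counted with the other GST classes.

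GSTs join the tripeptide glutathione to reactive, electrophilic compounds, which makes these compounds more soluble and marks them for transport into the vacuole. Tau and phi are plant-specific, stress-inducible classes, and they carry most of the herbicide and xenobiotic detoxification in leaves and roots. Some members also bind small molecules without conjugating them, or take part in the synthesis of defence compounds such as camalexin and glucosinolates. Many are switched on by oxidised lipids, salicylic acid, auxin and xenobiotics through transcription factors of the TGA family, which bind the sequence TGACG.

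Transcripts were measured by poly(A) RNA sequencing of 5-day-old seedlings held for 3 h in liquid medium with 50 µM abscisic acid (ABA, the hormone of seed dormancy and drought) or in the same medium without it (mock). The 10 groups were 5 genotypes in both treatments with 3 libraries each, 30 in all. The dxo1 mutant carries a T-DNA insertion in DXO1, which encodes an enzyme that removes NAD caps from RNA and that also activates RNMT1, the methyltransferase that makes the m7G cap. The dxo1/cDXO1 line is dxo1 with a transgene for the C-terminal catalytic part of DXO1, and dxo1/NTE is dxo1 with a transgene for the plant-specific N-terminal extension, both driven by the DXO1 promoter. The rnmt1-3 line, labelled rnmt1, holds a weak gene-edited allele of RNMT1 in a plant with intact DXO1, and the wild type (WT) was Col-0. The study calls the libraries of a group biological replicates, and whether they came from separate plates or days is not given in the sources used here, so p-values measure the spread between these libraries.

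Library totals lay between 17961410 and 23249299 counts (median 19825453). In CPM (counts scaled to library size), mock levels of DXO1 averaged 20.8 ± 2.0 (dxo1), 222 ± 3.5 (dxo1/cDXO1) and 233 ± 20 (dxo1/NTE), against 44.5 ± 4.6 in WT (SD, n = 3), and reads outside the insertion or from a transgene count toward it. RNMT1 averaged 14.7 CPM in mock rnmt1-3 against 19.2 CPM in WT, a difference that was not called (log2 fold change -0.38 ± 0.13 SE, adjusted p = 0.0767). Summed shoot markers lay between 20567 and 32548 CPM, root markers between 3010 and 4649 CPM, and embryo and seed markers between 0 and 3.45 CPM over the 30 libraries, beside a tissue label of whole seedlings. WT mock replicate 1 stood apart from the other WT mock libraries: the dispersion, the squared biological coefficient of variation, of that group was 0.0399 with it and 0.00491 without it. It enters every mock comparison with WT and the ABA response of WT, so the counts of these comparisons are also given without it. In whole seedlings, fewer cells of a type and less RNA per cell cannot be told apart.

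The genes lie on all 5 chromosomes, 23 of them on chromosome 1 and 11 on chromosome 2, with 4 on chromosome 3 and 1 each on chromosomes 4 and 5 (TAIR10.1, RefSeq annotation). Tandem copies are common, and 27 of the 40 stood in 8 clusters with at most 2 other coding genes between neighbours. The 7 genes GSTU1 to GSTU7 lie in one stretch, chr2:12617936-12632538, and GSTU19 to GSTU23 lie on chr1:29467412-29488007. All 28 tau genes have 2 coding exons, whereas 9 of the 12 phi genes have 3.

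The windows of 300 bases before the annotated start were searched on both strands for 2 short motifs, TGACG of the TGA factors and ACGTG, the core of the ABA-responsive element. TGACG was present in 16 of the 40 windows (40%), against 21.3% of the 27443 windows of all coding genes, and ACGTG in 15 (37.5%), against 25.6%. The longer form TGACGT was in 8 windows (20.0%, against 8.72%) and the palindrome CACGTG in 3 (7.5%, against 7.09%). A match is a description of the letters and shows no binding. The windows of 4 tau genes described below, all of which hold TGACG, are printed 5′ to 3′ on the gene's strand. TGACG and ACGTG are in capitals on either strand (a match on the other strand reads CGTCA or CACGT). Other members called below hold neither motif and are not printed, such as GSTU23, GSTU20, GSTU4, GSTU14, GSTU16, GSTF2, GSTF7 and GSTF13. The windows of GSTU17, GSTU13 and GSTF6 hold ACGTG and no TGACG. GSTU9 (chr5:25089627-25089926, minus strand) holds both motifs at 2 places each, and 1 match of each overlaps the other. GSTU5 (chr2:12625791-12626090, minus strand) holds TGACG at 2 places, GSTU11 (chr1:26338819-26339118, minus strand) holds each motif once, and GSTU25 (chr1:5871724-5872023, plus strand) holds TGACG once.
GSTU9: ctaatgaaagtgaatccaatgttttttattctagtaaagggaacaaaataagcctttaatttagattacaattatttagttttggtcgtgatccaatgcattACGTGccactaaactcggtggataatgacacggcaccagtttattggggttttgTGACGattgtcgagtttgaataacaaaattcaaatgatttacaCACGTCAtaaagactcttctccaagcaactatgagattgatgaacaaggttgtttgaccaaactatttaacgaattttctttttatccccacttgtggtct
GSTU5: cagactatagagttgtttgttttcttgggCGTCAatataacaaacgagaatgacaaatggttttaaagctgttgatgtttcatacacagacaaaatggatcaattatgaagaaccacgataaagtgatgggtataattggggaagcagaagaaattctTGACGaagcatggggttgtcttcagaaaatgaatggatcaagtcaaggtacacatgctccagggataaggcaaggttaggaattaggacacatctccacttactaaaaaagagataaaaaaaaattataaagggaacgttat
GSTU11: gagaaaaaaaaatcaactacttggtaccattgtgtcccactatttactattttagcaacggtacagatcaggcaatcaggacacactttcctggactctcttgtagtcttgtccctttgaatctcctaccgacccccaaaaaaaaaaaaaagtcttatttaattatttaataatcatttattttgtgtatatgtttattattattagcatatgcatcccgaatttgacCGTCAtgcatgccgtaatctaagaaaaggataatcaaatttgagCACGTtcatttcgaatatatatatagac
GSTU25: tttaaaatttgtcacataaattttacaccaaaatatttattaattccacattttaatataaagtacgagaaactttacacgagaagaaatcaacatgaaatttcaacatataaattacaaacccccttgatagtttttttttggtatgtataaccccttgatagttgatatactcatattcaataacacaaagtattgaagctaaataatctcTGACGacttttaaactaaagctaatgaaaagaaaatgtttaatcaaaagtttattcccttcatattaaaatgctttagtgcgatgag

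Few of the genes supplied most of the transcripts. In TPM, counts scaled for gene length and library size and averaged over the 30 libraries, GSTF9 (AT2G30860), a phi enzyme that also reduces peroxides, stood at 1344 TPM and made up 27.4% of the summed level of the members. GSTU19 (AT1G78380), a tau enzyme with high activity on model substrates, stood at 922 TPM (18.8%). GSTF10 (AT2G30870), known as ERD13 from its induction by dehydration, stood at 862 TPM (17.6%) and GSTU20 (AT1G78370), which binds the jasmonate-conjugating enzyme JAR1, at 519 TPM (10.6%). These 4 genes held 74.4% of the summed TPM. Phi genes held 57.0% and tau genes 43.0%.

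A middle class of 17 genes lay between 10 and 100 TPM and 7 genes lay above 100 TPM, the other three being GSTF6 (AT1G02930, 215 TPM), an enzyme of camalexin synthesis, GSTF8 (AT2G47730, 198 TPM), a widely used early stress marker, and GSTU17 (AT1G10370, 105 TPM), also known as ERD9. The middle class ran from GSTF7 (AT1G02920) at 98.6 TPM, GSTU13 (AT1G27130) at 90.3, GSTU5 (AT2G29450) at 84.7, GSTU27 (AT3G43800) at 64.9 and GSTU24 (AT1G17170) at 50.6 TPM down to GSTU28 (AT1G53680) at 11.1 TPM. Between these stood GSTU9 (AT5G62480) at 39.4, GSTF14 (AT1G49860) at 39.1, GSTU26 (AT1G17190) at 32.1, GSTF2 (AT4G02520) at 30.7, GSTU22 (AT1G78340) at 27.8 and GSTU8 (AT3G09270) at 26.0 TPM. They were followed by GSTU16 (AT1G59700) at 22.9, GSTU1 (AT2G29490) at 22.7, GSTU18 (AT1G10360) at 16.9, GSTU7 (AT2G29420) at 16.6 and GSTU25 (AT1G17180) at 15.1 TPM.

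The remaining 16 genes were scarce. Below 10 TPM stood GSTU23 (AT1G78320) at 9.22, GSTU6 (AT2G29440) at 8.07, GSTU10 (AT1G74590) at 7.01, GSTU4 (AT2G29460) at 6.87, GSTF4 (AT1G02950) at 4.45, GSTU11 (AT1G69930) at 4.27, GSTF13 (AT3G62760) at 3.43 and GSTU14 (AT1G27140) at 2.94 TPM. Under 1 TPM stood GSTF3 (AT2G02930) at 0.801, GSTF5 (AT1G02940) at 0.799, GSTU21 (AT1G78360) at 0.641, GSTU12 (AT1G69920) at 0.632, GSTU3 (AT2G29470) at 0.577 and GSTU2 (AT2G29480) at 0.136 TPM. GSTU15 (AT1G59670) had at most 3 counts in any library, and GSTF11 (AT3G03190), a gene linked to glucosinolate synthesis, had 0 counts in all 30. All 934 exon bases of GSTF11 overlap AT3G03200 on the other strand, and whether counting used the strand was not given in the sources used here. GSTU21 lies between GSTU20 and GSTU22, and GSTU2 and GSTU3 lie between GSTU1 and GSTU4.

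**Figure D1:**
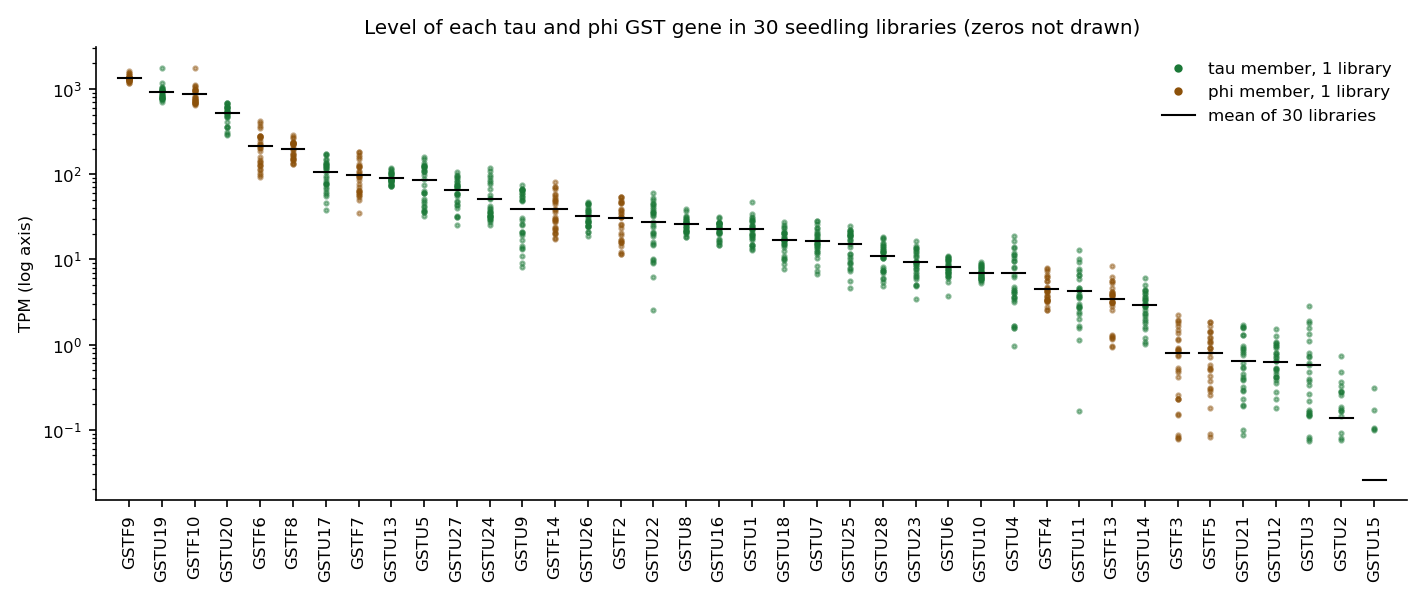
Level of each member in TPM on a log axis, 1 point per library (30 libraries, zeros not drawn) with a black line at the mean, ordered from high to low and with tau and phi genes in different colours; GSTF11, at 0 counts, is not shown. GSTF9, GSTU19, GSTF10 and GSTU20 stand at the left between 519 and 1344 TPM, and the 7 members at the right end average under 1 TPM.

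Some counts may mix genes. GSTF6 and GSTF7 share 93.3% of their residues and 94.29% of their coding bases, and GSTF2 and GSTF3 share 92.45% and 94.52%, the only pairs above 90% among the 444 within-class pairs compared, so reads of each pair could be divided or lost in counting and their values are uncertain. Exons of genes on the opposite strand cover 70.3% of the exon bases of GSTU2, 63.0% of those of GSTU7, 60.5% of GSTF2, 29.9% of GSTU6 and 29.3% of GSTF4. A second gene on the opposite strand covers 5.86% of GSTU7. GSTF8 (9.14%, same strand), GSTU10 (7.72%, opposite strand, and 1.82%, same strand), GSTU18 (6.97%, shared with GSTU17) and GSTF10 (1.06%) overlap other genes to a smaller extent. Reads from overlaps on opposite strands cannot be told apart without strand. Strand does not separate reads from overlaps on the same strand, as for GSTF8, for GSTU10 with AT1G74600 and for GSTU18 with GSTU17.

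Which of these genes changed was asked by comparing each genotype with WT, the transgenic lines and rnmt1-3 with dxo1, and ABA with mock in each genotype. A gene was called when its adjusted p in edgeR's quasi-likelihood test was under 0.05, adjusted over all genes tested in that comparison. GSTU2, GSTU15 and GSTF11 never passed the filter on low counts. GSTU3, GSTU12 and GSTF9 were tested and never called, and the other 34 were called in at least 1 of the 23 comparisons. The comparisons with WT share the WT libraries of a treatment, and those with dxo1 share its libraries, so their values are set side by side without counting agreements between them. Most genes given below by library were taken from called members whose groups did not overlap, so a remark that groups did not overlap describes the values and adds no support to the call.

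**Figure D2:**
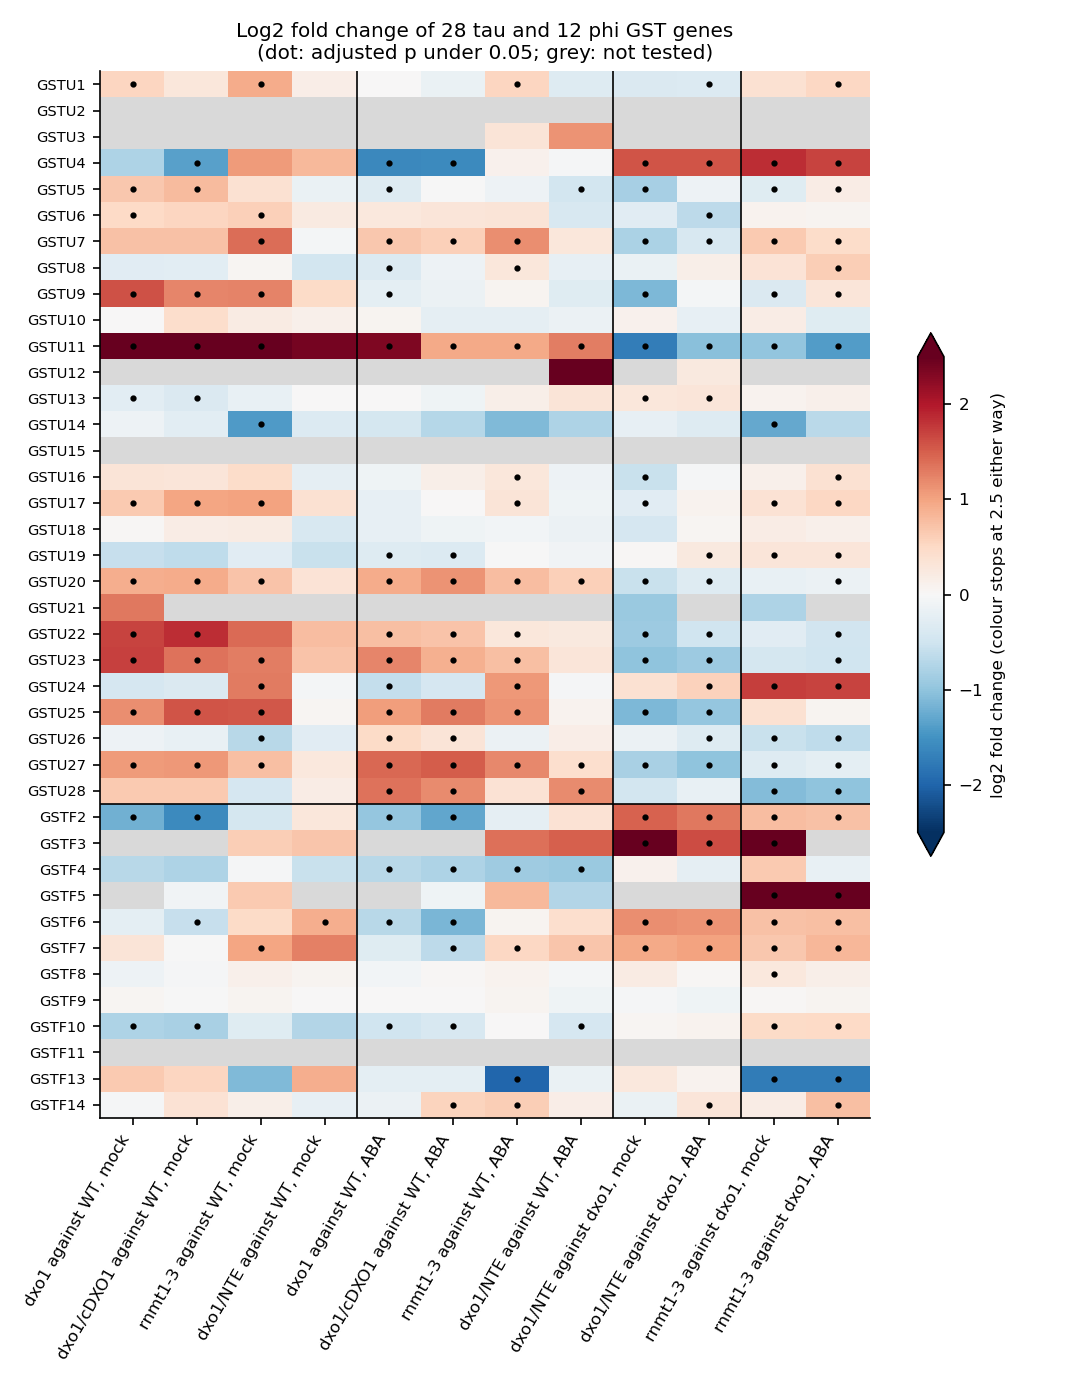
Log2 fold change of each member (rows, tau above phi) in 12 comparisons (columns, named as first group against second), with red for higher and blue for lower in the first group, a dot where the adjusted p was under 0.05 and grey where a gene was not tested. Dots in the first column, dxo1 against WT after mock treatment, stand on 11 tau genes that were higher and on 3 genes that were lower.

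In mock-treated dxo1, 11 of 24 tested tau genes were called higher than in WT and 1 lower, and of 9 tested phi genes 0 were called higher and 2 lower. Over all genes 13.0% were called higher and 11.8% lower. The median log2 fold change was 0.32 over the 33 tested members and 0.00 over all tested genes. The summed level of the 28 tau genes was 1370.0 ± 73.6 CPM in dxo1 and 1363 ± 422 CPM in WT (SD, n = 3). The dxo1 libraries ran between 1314 and 1453 CPM. The WT libraries ran between 1103 and 1849.6 CPM, with WT mock replicate 1 at the top. That library raised both the mean and the spread of WT, so these sums cannot settle whether the class differed. The genes called higher were GSTU11, GSTU23, GSTU22, GSTU9, GSTU25, GSTU27, GSTU20, GSTU5, GSTU17, GSTU1 and GSTU6, and those called lower were GSTF2, GSTF10 and GSTU13. GSTF2 encodes a phi protein that binds indoles such as camalexin, and GSTU13 acts in indole-based immunity.

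GSTU11 had the highest fold in dxo1. It stood at 5.98, 3.70 and 4.63 CPM in dxo1 and at 0, 0.104 and 0.713 CPM in WT. WT held only 15 counts over 3 libraries, against 290 in dxo1, a depth-scaled ratio of 17.9 with a 95% exact interval of 10.7 to 32.4 that covers counting error only (fitted log2 fold change 4.12 ± 0.69 SE, adjusted p = 0.00458). The groups did not overlap, and the fitted value ran from 3.56 to 6.33 when single libraries were left out.

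GSTU23 stood at 8.54, 6.23 and 7.32 CPM in dxo1 and at 1.81, 2.45 and 2.52 CPM in WT (log2 fold change 1.71 ± 0.22, adjusted p = 0.00149). GSTU9 stood at 18.7, 17.3 and 15.4 CPM in dxo1 and at 6.78, 5.42 and 4.88 CPM in WT (1.60 ± 0.16, adjusted p = 0.000588). GSTU27 stood at 66.6, 59.9 and 52.7 CPM in dxo1 and at 27.4, 29.4 and 28.8 CPM in WT (1.07 ± 0.11, adjusted p = 0.000615). For each of these 3 genes the lowest dxo1 library was above the highest WT library.

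The strongly expressed GSTU20 also rose, at 463, 411 and 407 CPM in dxo1 and 286, 195 and 210 CPM in WT (0.90 ± 0.15, adjusted p = 0.00401). GSTU22, a tau gene of the same cluster, stood at 16.0, 12.2 and 9.17 CPM in dxo1 and 6.35, 3.80 and 1.59 CPM in WT (1.68 ± 0.42, adjusted p = 0.0213). GSTU25, whose enzyme conjugates the explosive TNT, stood at 10.2, 9.77 and 8.39 CPM in dxo1 and 6.62, 2.76 and 3.35 CPM in WT (1.17 ± 0.30, adjusted p = 0.0250). In all 3 genes WT replicate 1 was the highest WT library and still lay below dxo1.

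GSTF2 fell in dxo1, to 18.0, 14.0 and 13.5 CPM, against 42.0, 30.2 and 33.3 CPM in WT (log2 fold change -1.20 ± 0.16, adjusted p = 0.00192). GSTF10 stood at 521, 470 and 502 CPM in dxo1 and at 1212, 643 and 719 CPM in WT (-0.77). The WT level of GSTF10 in replicate 1 was far above the other WT libraries, as was that of GSTU19 (1207, 611 and 618 CPM in WT). The smaller calls were GSTU5 (0.67), GSTU17 (0.65), GSTU1 (0.53), GSTU6 (0.50) and GSTU13 (-0.27).

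Of these 14 calls, 7 kept an adjusted p under 0.05 whichever library was left out (GSTU5, GSTU9, GSTU11, GSTU20, GSTU23, GSTU27 and GSTF2). The other 7 lost it without at least 1 library, with adjusted p up to 0.161. Without WT mock replicate 1 there were 16 members higher and 6 lower, beside 22.4% and 21.2% of all genes. Without dxo1 replicates 1, 2 and 3 the total was 7, 8 and 8, and without WT replicate 2 it was 9. Tissue markers moved too: of 6 root markers 2 were higher and 0 lower in mock dxo1 than in WT (3 and 0 for dxo1/cDXO1, 1 and 0 for rnmt1-3), and of 5 shoot markers 1 was higher and 2 lower (1 and 0 for both other lines). Their part in the GST differences was not tested.

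**Figure D3:**
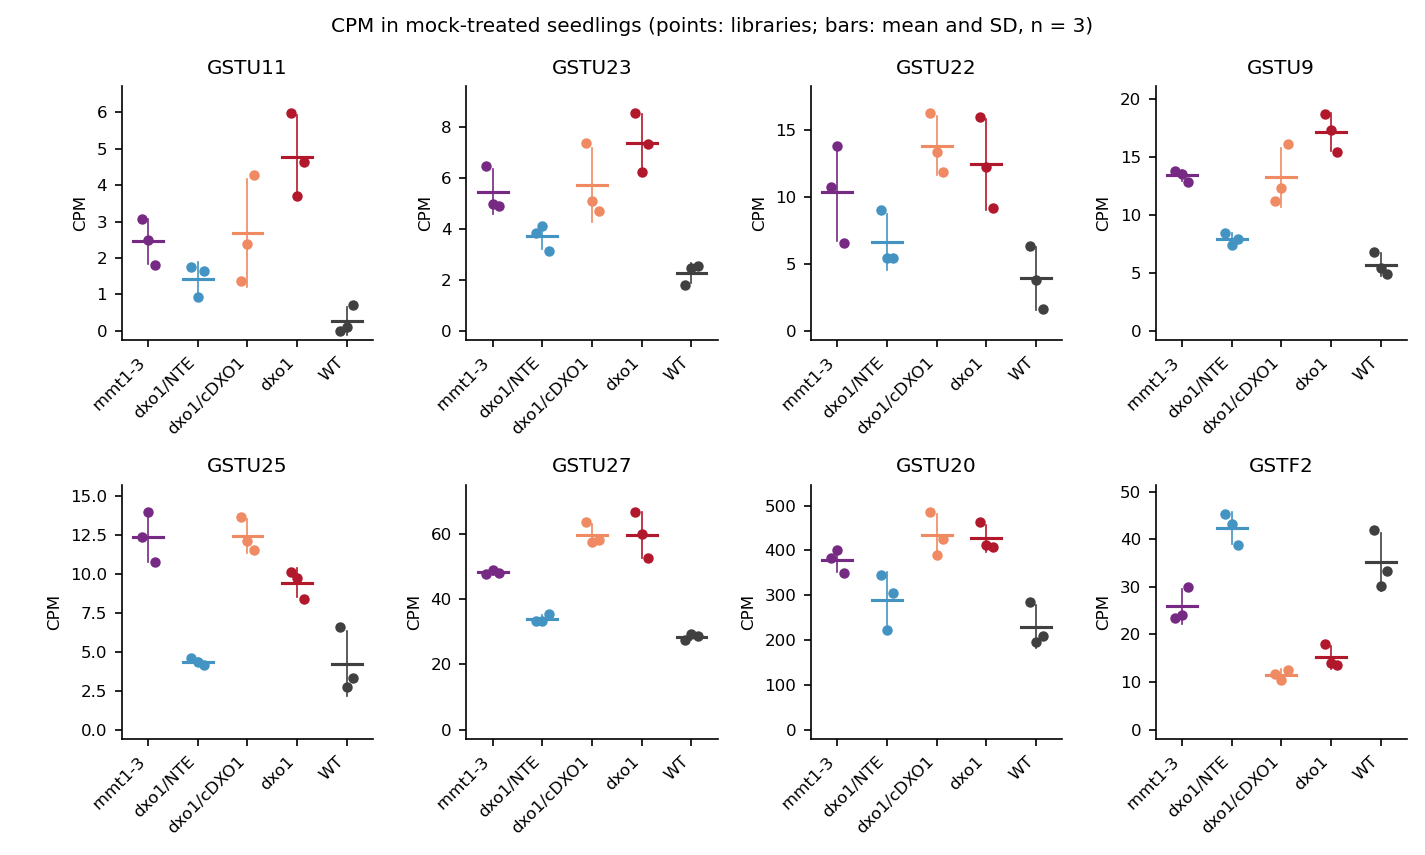
CPM of 8 members in mock-treated seedlings, with 1 point per library and bars at the mean and SD (n = 3), for rnmt1-3, dxo1/NTE, dxo1/cDXO1, dxo1 and WT from left to right. For GSTU23 the dxo1 libraries lie between 6.23 and 8.54 CPM and the WT libraries between 1.81 and 2.52 CPM, and for GSTF2 the dxo1/NTE libraries lie between 38.8 and 45.2 CPM and the dxo1 libraries between 13.5 and 18.0 CPM.

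In mock-treated dxo1/cDXO1, the line with the catalytic part of DXO1, 9 of 23 tested tau genes were called higher than in WT and 2 lower, and of 10 tested phi genes 0 were called higher and 3 lower, beside 12.1% and 11.4% of all genes. The tau genes summed to 1367 ± 66.1 CPM in dxo1/cDXO1, against the 1363 ± 422 CPM of WT, a mean and spread raised by WT mock replicate 1. The median log2 fold change of the members was 0.28, against -0.01 over all genes. GSTU25 stood at 13.7, 12.1 and 11.6 CPM in dxo1/cDXO1 and 6.62, 2.76 and 3.35 CPM in WT (1.57 ± 0.29, adjusted p = 0.00645). GSTU27 stood at 63.7, 57.5 and 58.1 CPM in dxo1/cDXO1 and 27.4, 29.4 and 28.8 CPM in WT (1.08 ± 0.10, adjusted p = 0.000256). Both genes had no overlap between the groups.

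GSTF2 fell further than any other called member, to 11.6, 10.5 and 12.6 CPM in dxo1/cDXO1 against 42.0, 30.2 and 33.3 CPM in WT (-1.59 ± 0.15, adjusted p = 0.000312). GSTU4 was lower too, at 1.17, 0.691 and 1.16 CPM in dxo1/cDXO1 and 3.23, 2.19 and 2.47 CPM in WT (-1.37 ± 0.32, adjusted p = 0.0168). GSTU11 held 160 counts in dxo1/cDXO1 against 15 in WT, a ratio of 9.95 (95% exact interval 5.86 to 18.2). The groups of GSTF2, GSTU4 and GSTU11 did not overlap either.

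The other calls in dxo1/cDXO1 were GSTU22 (1.84), GSTU23 (1.35), GSTU9 (1.22), GSTU17 (0.98), GSTU20 (0.93), GSTU5 (0.78), GSTF10 (-0.82), GSTF6 (-0.58) and GSTU13 (-0.37). Leaving out single libraries kept 7 of the 14 calls (GSTU9, GSTU17, GSTU20, GSTU23, GSTU25, GSTU27 and GSTF2), and the others reached adjusted p up to 0.169. Without WT mock replicate 1 the counts were 13 higher and 7 lower, beside 20.6% and 19.5% of all genes. Without dxo1/cDXO1 replicates 1 and 2 the total was 9 and 8.

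In mock-treated rnmt1-3, the RNMT1 mutant, 11 of 23 tested tau genes were called higher than in WT and 2 lower, and of 11 tested phi genes 1 was called higher and 0 lower, beside 10.1% and 8.76% of all genes. The tau genes summed to 1497 ± 110.2 CPM in rnmt1-3, against 1363 ± 422 CPM in WT. The rnmt1-3 libraries ran between 1371 and 1574 CPM, and the upper end of the WT range was WT mock replicate 1. The median log2 fold change was 0.47 over the members and -0.01 over all genes. The calls higher were GSTU11, GSTU25, GSTU7, GSTU24, GSTU23, GSTU9, GSTU17, GSTF7, GSTU1, GSTU27, GSTU20 and GSTU6, and those lower were GSTU14 and GSTU26. GSTU26, whose transcripts respond to herbicides and cold, was not called in mock dxo1.

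GSTU24, a second TNT-conjugating enzyme, stood at 82.6, 69.9 and 58.6 CPM in rnmt1-3 and at 41.3, 20.2 and 24.4 CPM in WT (2.46-fold, adjusted p = 0.00964). GSTU7 stood at 16.1, 12.8 and 11.4 CPM in rnmt1-3 and at 7.38, 3.49 and 4.39 CPM in WT (1.41 ± 0.27, adjusted p = 0.00975). GSTU25 stood at 12.4, 14.0 and 10.8 CPM in rnmt1-3 and 6.62, 2.76 and 3.35 CPM in WT (1.55 ± 0.30, adjusted p = 0.00991). In each of them WT replicate 1 lay well above the other WT libraries but below every rnmt1-3 library.

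GSTU9 stood at 13.8, 13.5 and 12.9 CPM in rnmt1-3 and 6.78, 5.42 and 4.88 CPM in WT (1.24 ± 0.16, adjusted p = 0.00199). GSTU27 stood at 47.8, 49.0 and 47.9 CPM in rnmt1-3 and 27.4, 29.4 and 28.8 CPM in WT (0.76 ± 0.09, adjusted p = 0.00143). The 3 libraries of each group lay close together for both genes. GSTU14 fell to 1.17, 0.624 and 0.972 CPM in rnmt1-3, against 2.41, 2.501 and 2.47 CPM in WT (-1.41 ± 0.31, adjusted p = 0.0156).

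GSTU11 held 153 counts in mock rnmt1-3 against 15 in WT, a ratio of 9.01 (95% exact interval 5.29 to 16.5). GSTU23 (1.27), GSTU17 (1.01), GSTF7 (0.99), GSTU1 (0.92), GSTU20 (0.72) and GSTU6 (0.60) were higher and GSTU26 (-0.69) lower. Of the 14 calls, 6 held without any single library (GSTU1, GSTU9, GSTU17, GSTU23, GSTU26 and GSTU27), and the rest reached adjusted p up to 0.167. Without WT mock replicate 1 there were 19 higher and 3 lower, beside 19.2% and 17.6% of all genes. Without rnmt1-3 replicates 1 and 2 the total was 7 and 9.

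With the N-terminal extension, 1 of 33 tested members was called higher than in WT after mock treatment and 0 lower, beside 0.850% and 0.755% of all genes. This gene was GSTF6, at 266, 181 and 234 CPM in dxo1/NTE and 113, 102 and 150 CPM in WT (0.91 ± 0.18, adjusted p = 0.0494). The call was lost without any of 5 single libraries, with adjusted p up to 0.241. At an unadjusted p under 0.05 there were 10 members, and DESeq2 called 3. Without WT mock replicate 1 the comparison called 7 members higher (GSTU4, GSTU9, GSTU20, GSTU22, GSTF2, GSTF6 and GSTF7) and 2 lower (GSTU18 and GSTF10), beside 6.44% and 7.66% of all genes.

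The dxo1/NTE line was also compared directly with dxo1, without WT libraries. In this design the extension itself, the level of its transgene and the transgene's place in the genome cannot be told apart. In mock-treated dxo1/NTE, 6 of 34 tested members were called higher than in dxo1, 4 phi and 2 tau, and 11 lower, all tau, beside 14.8% and 17.8% of all genes. The median log2 fold change was -0.44 over the tau members and 0.23 over the phi members. GSTF2 stood at 45.2, 43.2 and 38.8 CPM in dxo1/NTE and at 18.0, 14.0 and 13.5 CPM in dxo1 (1.48 ± 0.11, adjusted p = 3.3e-06). GSTU9 stood at 8.41, 7.37 and 7.89 CPM in dxo1/NTE and at 18.7, 17.3 and 15.4 CPM in dxo1 (-1.12 ± 0.12, adjusted p = 2.61e-05).

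GSTU25 fell to 4.60, 4.32 and 4.18 CPM in dxo1/NTE, against 10.2, 9.77 and 8.39 CPM in dxo1 (-1.12 ± 0.15). GSTU11 fell to 1.74, 0.922 and 1.64 CPM in dxo1/NTE, against 5.98, 3.70 and 4.63 CPM in dxo1 (-1.73 ± 0.28). GSTU23 fell to 3.85, 4.12 and 3.15 CPM in dxo1/NTE, against 8.54, 6.23 and 7.32 CPM in dxo1 (-0.998 ± 0.18). No library of these 3 genes crossed between the groups.

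GSTU4 rose, to 5.36, 4.03 and 4.31 CPM in dxo1/NTE against 2.33, 1.13 and 1.07 CPM in dxo1 (1.58 ± 0.29). GSTF6, the camalexin enzyme, rose to 266, 181 and 234 CPM in dxo1/NTE against 134, 89.4 and 80.4 CPM in dxo1 (1.16 ± 0.17). GSTF3, the near-copy of GSTF2, held 60 counts in dxo1/NTE and 5 in dxo1, a ratio of 11.1 (95% exact interval 4.50 to 35.4). The other calls were GSTF7 (0.94) and GSTU13 (0.27) higher, and GSTU22 (-0.91), GSTU5 (-0.84), GSTU27 (-0.82), GSTU7 (-0.78), GSTU20 (-0.56), GSTU16 (-0.56) and GSTU17 (-0.28) lower. Of these 17 calls, 15 held without any single library, and GSTU13 and GSTU17 did not (adjusted p up to 0.143). Of 6 root markers 1 was higher and 2 lower in this comparison, and of 5 shoot markers 2 were higher and 2 lower (after ABA 1 and 1, and 2 and 2), and their part was not tested.

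After ABA, 9 of 34 tested members were called higher in dxo1/NTE than in dxo1, 5 phi and 4 tau, and 10 lower, all tau, beside 17.2% and 18.6% of all genes. GSTF2 stood at 48.7, 44.1 and 39.996 CPM in dxo1/NTE and 20.9, 17.5 and 14.8 CPM in dxo1 (1.32 ± 0.11, adjusted p = 5.35e-07). GSTU27 stood at 20.8, 27.1 and 24.3 CPM in dxo1/NTE and 52.2, 45.4 and 47.2 CPM in dxo1 (-1.001 ± 0.09, adjusted p = 1.57e-06). Neither gene overlapped between the lines. GSTF3 (1.64), GSTU4 (1.57), GSTF6 (1.13), GSTF7 (1.00), GSTU24 (0.58), GSTU13 (0.31), GSTF14 (0.30) and GSTU19 (0.25) were also higher, and GSTU11 (-1.05), GSTU25 (-0.96), GSTU23 (-0.91), GSTU6 (-0.65), GSTU22 (-0.50), GSTU7 (-0.40), GSTU1 (-0.34), GSTU20 (-0.33) and GSTU26 (-0.32) lower. Of the 19 calls, 12 held without any single library, and GSTU1, GSTU6, GSTU7, GSTU24, GSTU26, GSTF3 and GSTF14 did not (adjusted p up to 0.171). RNMT1 itself, in dxo1/NTE after ABA, stood at 35.9, 60.3 and 20.3 CPM.

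Few members were called between dxo1/cDXO1 and dxo1. In mock-treated dxo1/cDXO1 the edgeR test called 0 of 33 tested members in either direction, beside 0.538% of all genes higher and 0.319% lower. At an unadjusted p under 0.05 there were 8 (GSTU9, GSTU10, GSTU11, GSTU17, GSTU25, GSTF2, GSTF7 and GSTF14), and DESeq2 called 0. Same-numbered libraries of these 2 groups varied together, and with the replicate number as a block the test called 6: GSTU25 (0.40), GSTF14 (0.38) and GSTU17 (0.32) higher, and GSTF2 (-0.38), GSTF6 (-0.31) and GSTF7 (-0.31) lower. Leaving out dxo1/cDXO1 replicate 3 gave 3 calls without the block.

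After ABA, 4 of 32 tested members were called higher in dxo1/cDXO1 than in dxo1 and 2 lower, beside 3.94% and 2.16% of all genes. GSTU11 stood at 3.28, 2.56 and 1.93 CPM in dxo1/cDXO1 and 8.46, 5.17 and 6.62 CPM in dxo1 (-1.38 ± 0.22, adjusted p = 0.000496). GSTF14 stood at 22.7, 23.9 and 20.6 CPM in dxo1/cDXO1 and 14.8, 12.6 and 14.5 CPM in dxo1 (0.68 ± 0.10). Both were well separated, whereas GSTF6 (-0.45), GSTU17 (0.19) and GSTU20 (0.19) lost their calls without at least 1 library (adjusted p up to 0.223) and GSTU5 (0.29) kept its own. The total was 3 without dxo1 replicate 1 or without dxo1/cDXO1 replicate 2. Of 5 shoot markers 4 were higher and 0 lower in dxo1/cDXO1 than in dxo1 after ABA (3 and 0 after mock treatment), and of 6 root markers 0 were called in either treatment, and their part was not tested.

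The mutants rnmt1-3 and dxo1 were also compared with each other. After mock treatment 12 of 35 tested members were called higher in rnmt1-3 than in dxo1, 7 phi and 5 tau, and 8 lower, beside 9.95% and 10.3% of all genes. Same-numbered libraries of these 2 groups varied together, but the values here come from the test without a block. The count with the block is given with the alternatives below. Among the phi members the median log2 fold change was 0.65. GSTU24 stood at 82.6, 69.9 and 58.6 CPM in rnmt1-3 and at 22.4, 23.0 and 18.1 CPM in dxo1 (1.72 ± 0.12, adjusted p = 1.18e-06). GSTF2 stood at 23.5, 24.1 and 30.04 CPM in rnmt1-3 and at 18.0, 14.0 and 13.5 CPM in dxo1 (0.76). Both were higher in every rnmt1-3 library. Tissue markers moved here too: of 5 shoot markers 4 were higher and 0 lower in mock rnmt1-3 than in dxo1 (2 and 0 after ABA), and of 6 root markers 2 were higher and 3 lower (2 and 3 after ABA). Summed shoot markers lay between 26561 and 30944 CPM in mock rnmt1-3 and between 23779 and 23825.5 CPM in mock dxo1, and summed root markers between 3992 and 4649 CPM in rnmt1-3 and between 3658 and 3888 CPM in dxo1. Their part in the GST differences was not tested.

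GSTF13 fell to 0.561, 0.672 and 0.663 CPM in rnmt1-3, against 2.09, 2.25 and 2.05 CPM in dxo1 (-1.75 ± 0.31). GSTF3 held 56 counts in rnmt1-3 and 5 in dxo1, a ratio of 10.7 (95% exact interval 4.32 to 34.2), and GSTF5, between GSTF4 and GSTF6 on chromosome 1, held 50 and 7, a ratio of 6.82 (3.08 to 17.8). GSTU4 (1.84), GSTF6 (0.73), GSTF7 (0.67), GSTU7 (0.66), GSTF10 (0.48), GSTU17 (0.36), GSTU19 (0.29) and GSTF8 (0.27) were higher, and GSTU14 (-1.27), GSTU28 (-1.08), GSTU11 (-0.98), GSTU26 (-0.56), GSTU9 (-0.36), GSTU27 (-0.32) and GSTU5 (-0.30) lower. Of the 20 calls, 14 held without any single library, and GSTU5, GSTU9, GSTU11, GSTU14, GSTU27 and GSTF8 did not (adjusted p up to 0.176).

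After ABA the same 2 mutants gave 16 members higher in rnmt1-3 than in dxo1 and 8 lower among 33 tested, beside 13.6% and 13.3% of all genes. GSTU24 stood at 92.9, 64.9 and 75.0 CPM in rnmt1-3 and at 24.6, 21.7 and 26.0 CPM in dxo1 (1.68 ± 0.10, adjusted p = 2.69e-09). GSTU4 stood at 10.5, 10.2 and 8.45 CPM in rnmt1-3 and at 2.54, 3.09 and 3.34 CPM in dxo1 (1.70 ± 0.17, adjusted p = 8.58e-07). The 2 groups were far apart for both. GSTF5 held 66 counts in rnmt1-3 and 9 in dxo1, a ratio of 6.80 (95% exact interval 3.38 to 15.5).

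Higher in rnmt1-3 than in dxo1 after ABA were also GSTF7 (0.82), GSTF6 (0.76), GSTF14 (0.75), GSTF2 (0.73), GSTU8 (0.62), GSTU17 (0.51), GSTU1 (0.51), GSTF10 (0.51), GSTU7 (0.47), GSTU16 (0.38), GSTU9 (0.31), GSTU19 (0.30) and GSTU5 (0.18). Lower were GSTF13 (-1.74), GSTU11 (-1.39), GSTU28 (-1.01), GSTU26 (-0.63), GSTU23 (-0.49), GSTU22 (-0.48), GSTU27 (-0.23) and GSTU20 (-0.15). Of the 24 calls, 18 held without any single library, and GSTU1, GSTU5, GSTU16, GSTU20, GSTU23 and GSTU27 did not (adjusted p up to 0.151).

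ABA raised some of the members in WT. Of 33 tested, 9 were called higher after ABA than after mock treatment, 7 tau and 2 phi, and 2 lower, both tau, beside 10% and 6.47% of all genes. GSTU9 stood at 40.5, 38.9 and 44.6 CPM after ABA and at 6.78, 5.42 and 4.88 CPM after mock treatment (log2 fold change 2.88 ± 0.15, adjusted p = 4.77e-06). GSTU5 stood at 95.3, 109 and 115 CPM after ABA and at 32.3, 26.7 and 26.8 CPM after mock treatment (1.92 ± 0.12, adjusted p = 1.67e-05). No ABA library of either gene came near the mock range. The windows of both are printed above. Among members called with ABA in WT, TGACG was in the windows of GSTU9, GSTU5, GSTU22, GSTU1, GSTF8, GSTU26 and GSTU27. It was absent from those of GSTU17, GSTU4, GSTF6 and GSTU16. The core ACGTG was in the windows of GSTU9, GSTU17, GSTU1, GSTF8, GSTF6 and GSTU26. It was absent from those of GSTU5, GSTU22, GSTU4, GSTU16 and GSTU27. GSTU7, which was not called in WT (0.41, adjusted p = 0.378), held TGACG at 3 places. The part of either motif in the ABA response was not tested.

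GSTU22 stood at 17.5, 20.2 and 21.9 CPM after ABA and 6.35, 3.80 and 1.59 CPM after mock treatment (2.37 ± 0.38, adjusted p = 0.00274). GSTU17, which has been linked to drought tolerance and ABA content, stood at 77.4, 113 and 101 CPM after ABA and 32.4, 25.9 and 38.1 CPM after mock treatment (1.62 ± 0.18). GSTU4 stood at 13.3, 6.46 and 7.67 CPM after ABA and 3.23, 2.19 and 2.47 CPM after mock treatment (1.82 ± 0.31). All 3 were higher in every ABA library of WT.

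GSTU1 (1.03), GSTF8 (0.66), GSTF6 (0.65) and GSTU16 (0.62) were also higher after ABA in WT, and GSTU26 (-0.85) and GSTU27 (-0.64) lower. The calls of GSTU16, GSTF6 and GSTF8 were lost without at least 1 library (adjusted p up to 0.111), and the other 8 held. Without WT mock replicate 1 there were 13 higher and 3 lower, beside 14.3% and 10.8% of all genes. RD29B, a standard ABA marker, averaged 43.5 CPM after ABA and 0.45 CPM after mock treatment in WT.

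The other genotypes had ABA responses of their own. In dxo1, 9 of 33 tested members were called higher after ABA and 4 lower, beside 14.1% and 11.8% of all genes. In dxo1/cDXO1 the counts were 10 higher and 4 lower of 33, beside 13.6% and 10.9%. In rnmt1-3 they were 9 higher and 3 lower of 36, beside 14.7% and 11.4%. In dxo1/NTE they were 13 higher and 3 lower of 35, beside 15.4% and 13.4%. Of 6 root markers 0 were higher and 3 lower after ABA in dxo1, dxo1/cDXO1 and rnmt1-3, 1 and 1 in dxo1/NTE and 1 and 0 in WT, and of 5 shoot markers 3 were higher in dxo1, 1 in dxo1/NTE and 0 in the other genotypes, with 0 lower in any. Their part in these responses was not tested. The ABA comparisons share no libraries with each other, and GSTU9, GSTU5, GSTU22, GSTU17, GSTU4, GSTU1 and GSTF8 were called higher in each of them.

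GSTU9 stood at 31.6, 36.3 and 36.9 CPM after ABA and 18.7, 17.3 and 15.4 CPM after mock treatment in dxo1 (1.03 ± 0.09, adjusted p = 3.07e-07). In dxo1/cDXO1 it stood at 40.02, 36.1 and 35.3 CPM after ABA and 11.2, 12.3 and 16.1 CPM after mock treatment (1.49 ± 0.12). In rnmt1-3 it stood at 44.8, 41.7 and 43.6 CPM after ABA and 13.8, 13.5 and 12.9 CPM after mock treatment (1.71 ± 0.08, adjusted p = 2.73e-10). In every line the ABA libraries lay above the mock libraries. Over all genotypes the ABA libraries spanned 30.3 to 44.8 CPM and the mock libraries 4.88 to 18.7 CPM. In dxo1/NTE GSTU9 stood at 31.2, 30.3 and 39.6 CPM after ABA and 8.41, 7.37 and 7.89 CPM after mock treatment (4.29-fold, adjusted p = 9.36e-09).

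GSTU5 rose by 0.92 ± 0.06 on the log2 scale in dxo1 (adjusted p = 5.76e-09), at 82.8, 84.6 and 88.3 CPM after ABA and 45.7, 44.9 and 45.2 CPM after mock treatment. In dxo1/cDXO1 it rose by 1.098 ± 0.13 on that scale, with 1.40 ± 0.09 for rnmt1-3 and 1.62 ± 0.11 for dxo1/NTE. GSTU22 had log2 fold changes of 1.43 (dxo1), 1.22 (dxo1/cDXO1), 1.24 (rnmt1-3) and 1.84 (dxo1/NTE), and GSTU17 had 0.76, 0.62, 0.92 and 1.13 in the same order. The fold changes of these genes were all positive and called in each of the 4 lines.

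GSTU4 rose by 0.98 (dxo1), 1.57 (dxo1/cDXO1), 0.84 (rnmt1-3) and 0.97 (dxo1/NTE), GSTU1 by 0.50, 0.55, 0.63 and 0.52 in the same order, and GSTF8 by 0.71, 0.69, 0.60 and 0.53. GSTU18, next to GSTU17 and overlapping it, rose by 0.60, 0.52, 0.55 and 1.08. GSTF14 changed the other way, with -1.32, -1.02, -0.75 and -0.85 for the same lines, and GSTU27 had -0.30, -0.23, -0.22 and -0.49. In WT the fold changes of GSTU18 (0.85 ± 0.28, adjusted p = 0.0757) and GSTF14 (-1.19 ± 0.39, adjusted p = 0.0712) had the same signs and missed the threshold. Both were called in WT without WT mock replicate 1, GSTU18 at 0.58 (adjusted p = 0.0393) and GSTF14 at -1.54 (adjusted p = 0.000404).

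GSTU16 was called higher and GSTU26 lower after ABA in dxo1/cDXO1, rnmt1-3 and dxo1/NTE, as in WT, and the remaining calls were made in 1 or 2 of these lines. In dxo1 GSTU25 (0.36) was higher and GSTU8 (-0.33) lower, and GSTU21 held 3 counts after ABA against 49 after mock treatment, a ratio of 0.0645 (95% exact interval 0.0129 to 0.200). In dxo1/cDXO1 GSTU16 (0.46) and GSTU24 (0.30) were higher and GSTU10 (-0.51) and GSTU26 (-0.37) lower, and in rnmt1-3 GSTU16 (0.44) was higher and GSTU26 (-0.32) lower. In dxo1/NTE GSTU11 (1.19), GSTU16 (0.72), GSTU7 (0.72), GSTU25 (0.51) and GSTU19 (0.27) were higher and GSTU26 (-0.43) lower. Calls lost without at least 1 library were GSTU4, GSTU8, GSTU18, GSTU25 and GSTU27 in dxo1 (adjusted p up to 0.134), GSTU10, GSTU18, GSTU24 and GSTU27 in dxo1/cDXO1 (up to 0.166), GSTU1, GSTU4, GSTU18, GSTU26 and GSTU27 in rnmt1-3 (up to 0.177), and GSTU1, GSTU11, GSTU19, GSTU25 and GSTU26 in dxo1/NTE (up to 0.169). Without rnmt1-3 ABA replicate 1 the total in rnmt1-3 was 7, against 12 with it.

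**Figure D4:**
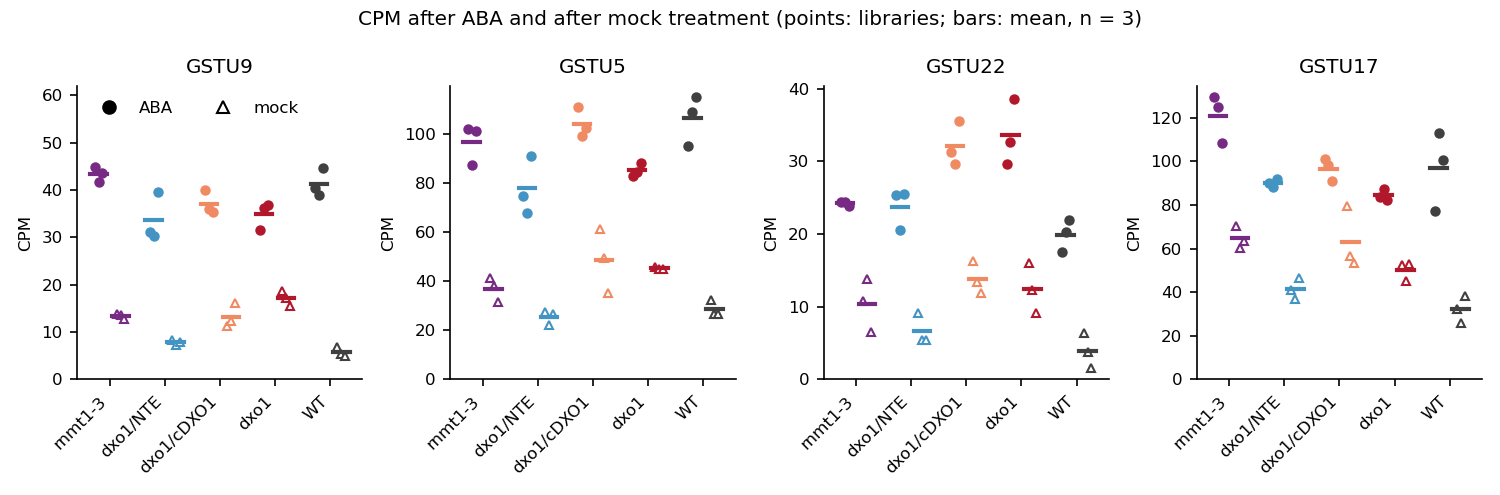
CPM of GSTU9, GSTU5, GSTU22 and GSTU17 after ABA (filled circles) and after mock treatment (open triangles) in each genotype, with 1 point per library and a bar at the mean (n = 3). For GSTU9 the ABA libraries of all genotypes lie between 30.3 and 44.8 CPM, while the mock libraries lie between 15.4 and 18.7 CPM in dxo1 and between 4.88 and 6.78 CPM in WT.

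Whether ABA acted differently in a line than in WT was tested by the interaction of genotype and treatment. For dxo1, 2 of 35 tested members were called, beside 0.272% of all genes. These were GSTU9, with a difference in log2 fold change of -1.82 ± 0.18 (adjusted p = 0.000422), and GSTU5, with -0.98 ± 0.13 (adjusted p = 0.00616). The negative sign means a smaller ABA response in dxo1 than in WT. For dxo1/cDXO1, 1 of 34 was called, beside 0.233% of all genes: GSTU9 (-1.39 ± 0.20, adjusted p = 0.00789). For rnmt1-3, 1 of 35 was called, beside 0.126%: GSTU9 (-1.17 ± 0.16, adjusted p = 0.00697). For dxo1/NTE, edgeR called 0 of 36 members and 0% of all genes, with 6 members at an unadjusted p under 0.05 and GSTU9 at -0.78 ± 0.20 (adjusted p = 0.210).

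The 4 interaction calls held when any single library was left out. The 4 tests share the WT libraries and are not independent. Without WT mock replicate 1 the tests called 5 members in dxo1 (GSTU9, GSTU5, GSTU17, GSTU22 and, in the positive direction, GSTU26), 4 in dxo1/cDXO1 (GSTU9, GSTU5, GSTU17 and GSTU22), 2 in rnmt1-3 (GSTU9 and GSTU22) and 1 in dxo1/NTE (GSTU9, -0.92, adjusted p = 0.0266).

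The ABA-treated groups were compared with ABA-treated WT, where WT mock replicate 1 plays no part. In dxo1, 9 of 32 tested members were called higher, all tau, and 10 lower, 6 tau and 4 phi, beside 22.6% and 21.2% of all genes. GSTU11 stood at 8.46, 5.17 and 6.62 CPM in dxo1 and 1.07, 1.51 and 1.44 CPM in WT (2.33 ± 0.25, adjusted p = 9.32e-06). GSTU27 stood at 52.2, 45.4 and 47.2 CPM in dxo1 and 15.7, 19.1 and 19.1 CPM in WT (1.43 ± 0.09, adjusted p = 2.07e-07). GSTU4 stood at 2.54, 3.09 and 3.34 CPM in dxo1 and 13.3, 6.46 and 7.67 CPM in WT (-1.60 ± 0.26). The groups of each gene were apart. After ABA, 2 root markers were higher and 1 lower in dxo1 than in WT (1 and 1 for dxo1/cDXO1, 0 and 2 for rnmt1-3, 0 and 0 for dxo1/NTE), and their part was not tested. Of the 5 shoot markers 3 were higher in dxo1/cDXO1 than in WT, 2 each in dxo1 and rnmt1-3 and 1 in dxo1/NTE, and 0 were lower in any.

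GSTU28 (1.37), GSTU23 (1.23), GSTU25 (1.05), GSTU20 (0.92), GSTU22 (0.76), GSTU7 (0.68) and GSTU26 (0.49) were also higher in dxo1 than in WT after ABA. GSTF2 (-0.96), GSTF6 (-0.70), GSTF4 (-0.70), GSTU24 (-0.60), GSTF10 (-0.51), GSTU8 (-0.34), GSTU19 (-0.33), GSTU5 (-0.32) and GSTU9 (-0.24) were lower. GSTU5 and GSTU9 were thus higher than WT in mock dxo1 and lower than WT in ABA-treated dxo1. Of the 19 calls 15 held without any single library, and those of GSTU8, GSTU9, GSTU24 and GSTF4 did not (adjusted p up to 0.163).

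In dxo1/cDXO1 after ABA, 10 of 33 tested members were called higher than in WT and 7 lower, beside 23.6% and 21.8% of all genes. GSTU20 stood at 515, 506 and 436 CPM in dxo1/cDXO1 and 247, 233 and 196 CPM in WT (1.12 ± 0.09, adjusted p = 5.48e-07). GSTU27 had 50.9, 55.3 and 46.6 CPM in dxo1/cDXO1 and 15.7, 19.1 and 19.1 CPM in WT (1.52 ± 0.10, adjusted p = 5.63e-08), and GSTF6 had 95.8, 86.0 and 70.3 CPM in dxo1/cDXO1 and 201, 192 and 169 CPM in WT (-1.15 ± 0.10). None of these 3 genes overlapped. The other calls were GSTU25 (1.29), GSTU28 (1.18), GSTU11 (0.96), GSTU23 (0.89), GSTU22 (0.70), GSTU7 (0.59), GSTF14 (0.55) and GSTU26 (0.33) higher, and GSTU4 (-1.59), GSTF2 (-1.29), GSTF4 (-0.78), GSTF7 (-0.66), GSTF10 (-0.41) and GSTU19 (-0.33) lower. GSTU11 and GSTF14 lost their calls without 1 library (adjusted p up to 0.0928).

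In rnmt1-3 after ABA, 14 of 35 tested members were called higher than in WT, 12 of them tau, and 2 lower, both phi, beside 19.7% and 16.6% of all genes. GSTU7 stood at 16.3, 12.9 and 14.8 CPM in rnmt1-3 and 7.66, 5.95 and 6.29 CPM in WT (1.15 ± 0.14). GSTU24 stood at 92.9, 64.9 and 75.0 CPM in rnmt1-3 and 54.4, 29.0 and 26.7 CPM in WT (1.09 ± 0.21), and GSTF13 at 0.724, 0.542 and 0.731 CPM in rnmt1-3 and 1.55, 4.39 and 2.03 CPM in WT (-1.98 ± 0.41, adjusted p = 0.00228). WT replicate 1 was the highest WT library for GSTU24 and lay below every rnmt1-3 library, and it was the lowest for GSTF13 and lay above every rnmt1-3 library.

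The remaining calls in rnmt1-3 after ABA were GSTU27 (1.20), GSTU25 (1.12), GSTU11 (0.94), GSTU20 (0.78), GSTU23 (0.74), GSTF14 (0.61), GSTU1 (0.53), GSTF7 (0.52), GSTU17 (0.32), GSTU22 (0.29), GSTU8 (0.29) and GSTU16 (0.29) higher and GSTF4 (-0.88) lower. Of the 16 calls, 8 held without any single library (GSTU7, GSTU20, GSTU24, GSTU25, GSTU27, GSTF4, GSTF7 and GSTF13), and the other 8 reached adjusted p up to 0.147. Without rnmt1-3 ABA replicate 1 the total was 9.

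In dxo1/NTE after ABA, 5 of 36 tested members were called higher than in WT and 3 lower, beside 4.62% and 3.38% of all genes. GSTU28 stood at 7.13, 5.56 and 5.63 CPM in dxo1/NTE and 2.73, 2.12 and 3.17 CPM in WT (1.19 ± 0.21, adjusted p = 0.00402). GSTU20 stood at 328, 365 and 324 CPM in dxo1/NTE and 247, 233 and 196 CPM in WT (0.59 ± 0.09, adjusted p = 0.00187). Both were higher in all dxo1/NTE libraries. GSTU11 (1.27), GSTF7 (0.69) and GSTU27 (0.42) were also higher, and GSTF4 (-0.92), GSTU5 (-0.45) and GSTF10 (-0.42) lower. GSTU5, GSTU11, GSTU27 and GSTF4 lost their calls without at least 1 library (adjusted p up to 0.191), and the total was 5 without dxo1/NTE ABA replicate 2 or without WT ABA replicate 3. With the replicate number as a block the total was 14. Deviations of same-numbered libraries of these 2 groups had correlations of 0.209, 0.048 and 0.160. They missed the rule used here for pairing, which asked for all 3 over 0.1.

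**Figure D5:**
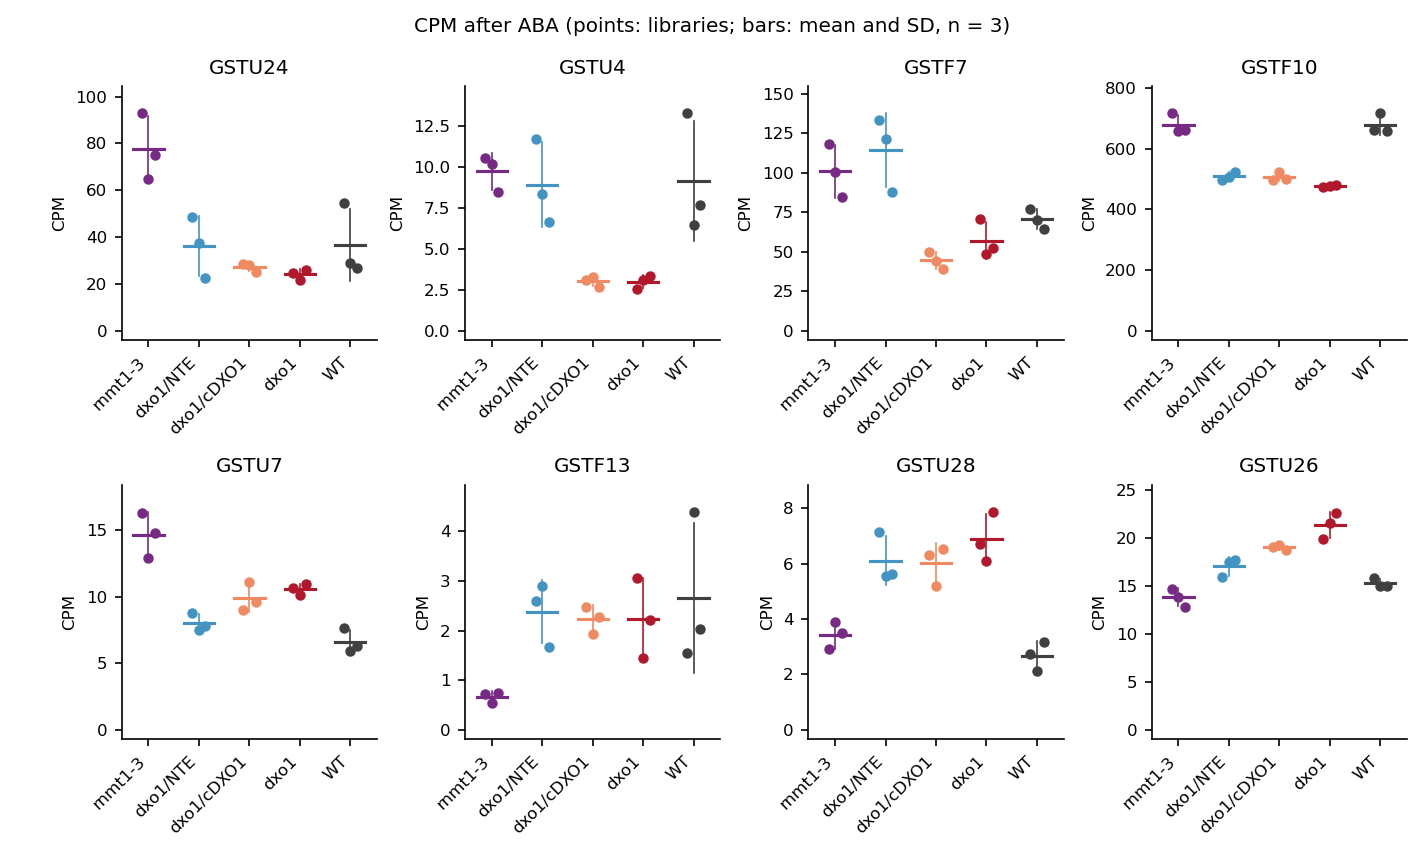
CPM of 8 members after ABA, with 1 point per library and bars at the mean and SD (n = 3), for rnmt1-3, dxo1/NTE, dxo1/cDXO1, dxo1 and WT from left to right. GSTU24 lies between 64.9 and 92.9 CPM in rnmt1-3, between 21.7 and 26.0 CPM in dxo1 and between 26.7 and 54.4 CPM in WT, and GSTF13 lies at 0.731 CPM or below in rnmt1-3.

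Genes that supply or accompany these enzymes were followed as lists. Of 13 tested genes of glutathione synthesis and recycling, 1 was higher and 3 lower in mock dxo1 than in WT, 0 and 3 for dxo1/cDXO1, 1 and 0 for rnmt1-3, and 0 and 0 for dxo1/NTE. The shares of all genes called higher and lower in these mock comparisons stood at 13.0% and 11.8% (dxo1), 12.1% and 11.4% (dxo1/cDXO1), 10.1% and 8.76% (rnmt1-3) and 0.850% and 0.755% (dxo1/NTE), also for the lists that follow, and counts over lists this short are given as a description. GSH1, the rate-limiting glutamate-cysteine ligase, had log2 fold changes of -0.70 in dxo1 and -0.64 in dxo1/cDXO1, and GSH2, glutathione synthetase, -1.03 and -0.95. GGT1, which breaks down glutathione outside the cell, had -0.89 and -1.06. In rnmt1-3 these 3 genes were not called (-0.32, -0.35 and -0.35), while APR3, which reduces sulfate for cysteine, was higher (1.46). Against dxo1, GSH1, GSH2 and GGT1 were higher in mock dxo1/NTE (0.48, 0.72 and 0.92) and in rnmt1-3 (0.38, 0.68 and 0.53).

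Of 13 tested genes of the other GST classes, 1 was higher (GSTF12, 1.97) and 4 lower (DHAR3, GSTL3, GSTT1 and GSTZ1) in mock dxo1 than in WT, 1 and 4 for dxo1/cDXO1, 1 and 1 for rnmt1-3, and 0 and 0 for dxo1/NTE. Among 7 tested glutathione peroxidases GPX7 (1.46) was higher and GPX1 (-0.69) lower in mock dxo1. Of 5 regulators of detoxification genes, the NAC factor ANAC032 was higher in mock dxo1 (0.79), dxo1/cDXO1 (1.04) and rnmt1-3 (1.98) than in WT, and it rose by 4.39 with ABA in WT. The factors TGA2, TGA5 and TGA6 and their partner SCL14 were not called in mock dxo1, dxo1/cDXO1, rnmt1-3 or dxo1/NTE against WT. Of 3 pumps that carry glutathione conjugates into the vacuole, ABCC3 (0.77) was higher and ABCC1 (-0.33) lower in mock dxo1.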

How the data were processed

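Per the labels and the study's methods, the authors checked reads with FastQC 0.11.8, aligned them to TAIR10 with HISAT2 2.2.1 and counted them per gene with featureCounts of Subread 2.0.8. The deposited table holds raw counts of 32833 genes in 30 libraries; the annotation release, strand setting and treatment of multimapping reads are not given in the sources used here.

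Members and gene lists were chosen with earlier results of these data known. Each comparison was fitted to its 6 libraries (interactions to 12) with edgeR 4.0.16 in R 4.3.3, TMM scaling, filterByExpr (10 counts, 15 in total) and the quasi-likelihood test, with Benjamini-Hochberg adjustment over all genes tested. A member was called at an adjusted p under 0.05. Errors of log2 fold changes are SE. CPM are TMM-scaled, and TPM were computed here from counts and the deposited gene lengths. Ratios of low counts carry exact 95% intervals. Members with values in every library were taken from the called members whose groups did not overlap, up to 8 per comparison by absolute log2 fold change, with others chosen after their values were seen. Alternatives were DESeq2 1.42.0, RLE scaling, no filter, the study's rule of unadjusted p with a 2-fold change, one fit over all 30 libraries, the replicate number as a block and each library left out. Motifs and positions came from RefSeq TAIR10.1, in which all 40 members were found by gene identifier with exon lengths equal to those of the table.

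Same-numbered libraries were checked for shared deviations over the 45 pairs of groups. The mean correlation lay between -0.0292 and 0.239. In 3 pairs of groups, mock dxo1, dxo1/cDXO1 and rnmt1-3 against each other, all 3 correlations were over 0.1, the rule used for pairing. The main fits still used no block, and counts with the replicate number as a block are given where such pairs were compared. On counts simulated for ABA-treated rnmt1-3 against WT (19303 genes), the test called 100% of 111 genes changed 4-fold, 87.6% of 89 changed 2-fold and 20 of 19103 unchanged genes. The simulated spread came from the ABA-treated WT libraries. Their group dispersion was 0.0102, against 0.0399 in mock WT, so these rates do not carry over to comparisons with mock WT.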

Additional observations from a re-analysis of the deposited data

Results flagged for a closer look

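GSTU9 and GSTU5 were singled out because the response to ABA differed between a mutant line and WT in a test of the difference itself. The ABA response of GSTU9 differed from that of WT by -1.82 (dxo1), -1.39 (dxo1/cDXO1) and -1.17 (rnmt1-3) on the log2 scale, and that of GSTU5 by -0.98 (dxo1) (adjusted p between 0.000422 and 0.00789, edgeR). All 3 GSTU9 tests use the same WT libraries. In mock-treated seedlings the log2 fold change of GSTU9 against WT was 1.60 (dxo1), 1.22 (dxo1/cDXO1) and 1.24 (rnmt1-3). After ABA it was -0.24, -0.14 and 0.08 in the same order. GSTU5 in dxo1 had 0.67 after mock treatment and -0.32 after ABA. The interaction sets the difference after ABA against that after mock treatment, so a higher mock level enters it directly. What raised the mock levels was not tested.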

How the results depend on the processing

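None of the 259 calls changed direction under any alternative. DESeq2 kept 239 of them, no filter 257, RLE scaling 259, the replicate block 256 and one fit over all 30 libraries 206. With each library left out, 1307 of 1578 fits kept the call. Counts of called members ran, over the libraries left out, from 7 to 22 for mock dxo1 against WT, 8 to 20 for dxo1/cDXO1, 7 to 22 for rnmt1-3 and 0 to 9 for dxo1/NTE, the upper end always without WT mock replicate 1. After ABA they ran from 9 to 19 for rnmt1-3 and 5 to 12 for dxo1/NTE. They ran from 7 to 13 for ABA against mock in rnmt1-3, from 0 to 3 for mock dxo1/cDXO1 against dxo1 and from 3 to 5 for the same lines after ABA.

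For dxo1/NTE against WT after mock treatment, where the main count was 1, DESeq2 called 3, the fit over all libraries 8 and no filter 2. DESeq2 called 4 and 3 members in the interactions of dxo1 and dxo1/cDXO1, and the fit over all libraries 4 and 3, with 1 for dxo1/NTE. That fit called 19 for ABA in WT, and against dxo1 after ABA 12 (dxo1/NTE), 0 (dxo1/cDXO1) and 15 (rnmt1-3). The replicate block called 14 for dxo1/NTE against WT after ABA and 6 for mock dxo1/cDXO1 against dxo1, with 25 in place of 20 for mock rnmt1-3 against dxo1, and the block in no other comparison moved a count by over 1.5 times.

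An unadjusted p with a 2-fold change, which leaves out small changes, called 7, 8 and 2 members in mock dxo1, dxo1/cDXO1 and dxo1/NTE against WT and 6, 7, 7 and 4 in dxo1, dxo1/cDXO1, rnmt1-3 and dxo1/NTE after ABA. It called 4, 5, 3 and 6 for ABA in those 4 lines, 7 (dxo1/NTE) and 7 (rnmt1-3) against mock dxo1, 7 (dxo1/NTE), 1 (dxo1/cDXO1) and 6 (rnmt1-3) against ABA-treated dxo1, and 4 and 3 in the interactions of dxo1/cDXO1 and rnmt1-3. The cause of these differences was not tested otherwise. GSTU2, GSTU15 and GSTF11 had too few counts to be tested. For GSTU2 and GSTF11, little transcript, depth and the counting of overlapping exons cannot be told apart. No overlap with another annotated gene was found for GSTU15, for which little transcript and depth cannot be told apart. Low counts leave wide intervals for GSTU11, GSTU21, GSTF3 and GSTF5.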

Other observations

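The glutathione supply genes were also counted after ABA. Of 13 tested genes of glutathione synthesis and recycling, 3 were higher and 4 lower in dxo1 than in WT (edgeR), beside 22.6% and 21.2% of all genes, and 4 and 3 in dxo1/cDXO1, beside 23.6% and 21.8%. The counts were 4 and 0 in rnmt1-3, beside 19.7% and 16.6%, and 1 and 1 in dxo1/NTE, beside 4.62% and 3.38%. In dxo1 and dxo1/cDXO1 these shares are near those of all genes. APR3, a sulfate-assimilation enzyme, had a log2 fold change of 2.02 ± 0.17 in rnmt1-3 against WT after ABA (adjusted p = 1.96e-06). GSTF12, the anthocyanin-related phi gene, was higher in mock rnmt1-3 than in WT by 2.05 and in dxo1/cDXO1 by 2.06, and after ABA in rnmt1-3 by 1.49 ± 0.25. GSTL1, a lambda GST, was higher in ABA-treated rnmt1-3 than in WT by 1.22 ± 0.31 (adjusted p = 0.00792), and the edgeR test did not call it in mock rnmt1-3 (0.63, adjusted p = 0.192).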
